A study of Solanum lycopersicum with 6 samples.

Results

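The genes described here cover plastid fatty acid synthesis and the desaturation of its products in tomato (Solanum lycopersicum) fruit, with related genes of other cell compartments. They were taken from the annotation in the deposited tables: a gene was a member where its description or its best protein hit named acetyl-CoA carboxylase, a biotin carboxyl protein, acyl carrier protein or fatty acid desaturase. This rule found 59 of the 21708 genes listed in any library. Some of the 59 have mitochondrial best hits or are of a type that acts outside the plastid. Counts over all members include them. RNA was sequenced from exocarp, the outer fruit layer with the epidermis and its cuticle, at the stage labelled MG. The nor-like1 libraries came from fruit in which SlNOR-like1, a NAC family transcription factor, was knocked out (1 mutant line, named nor-like1-1 in the deposited tables), and the WT libraries from wild-type exocarp, with 3 libraries of each genotype. How the knockout was made is not given in the sources used here. Since no label ties the libraries to separate plants or fruits, the p-values reflect library-to-library spread alone, and this spread may be technical.

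Plastids build fatty acids from acetyl-CoA. Acetyl-CoA carboxylase makes malonyl-CoA, and the fatty acid synthase then adds carbon units to a chain held on acyl carrier protein, each cycle running through a condensation, a reduction, a dehydration and a final reduction. A thioesterase releases the finished chain, or a soluble desaturase first places a double bond in it, and further desaturases in the plastid and the endoplasmic reticulum add more. In the fruit epidermis these chains feed membranes, cuticular waxes and cutin, the polyester of the cuticle.

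The SlNOR-like1 transcript (Solyc07g063420.3) had 15.99, 10.93 and 11.72 FPKM (fragments scaled to transcript length and library depth, as deposited) in the nor-like1 libraries and 83.78, 75.19 and 81.17 FPKM in the WT libraries. Its log2 fold change, nor-like1 over WT, was -2.61 (SE 0.162; edgeR adjusted p = 0.000532). Total expected counts lay between 8503210 and 11023036 in nor-like1 and between 11459875 and 17578533 in WT. On the first principal component of all genes, nor-like1 libraries scored -60.8 to -41.0 and WT libraries 74.6, 61.8 and, for replicate 3, 23.2. Results that rest on WT replicate 3 are given with and without it. All 6 epidermis markers were detected. Of them, the wax gene CER6 and the exporter ABCG11 rose while CYP86A69 and GPAT6 of cutin synthesis fell. The cutin synthase CD1 went the other way, with a log2 fold change of 0.96, and CD2 had -0.32. Neither passed (edgeR adjusted p = 0.0529 and 0.106). Neither overlapped between genotypes, which was also so for 42.8% of all genes tested. The summed level of all 6 was 348, 362 and 403 FPKM in nor-like1 against 240, 249 and 303 FPKM in WT. CER6 alone had a mean of 226 FPKM in nor-like1 and 127 FPKM in WT, a large part of this sum. In lists for other cells, 2 genes were higher (7.14%) and 5 were lower (17.9%) of 28 chlorophyll-binding genes tested, at an edgeR adjusted p below 0.05. Of 12 seed genes tested, 2 were higher (16.7%) and 2 were lower (16.7%). Over all genes tested, 10.5% were higher and 11.4% were lower. The part of these shifts in the results below was not tested. In such bulk samples, fewer cells of a type and less RNA per cell cannot be told apart.

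Single genes of several steps of fatty acid synthesis changed in nor-like1. Genes for a biotin carboxylase, a biotin carboxyl carrier protein, an acyl carrier protein, the enoyl reductase and an omega-6 desaturase rose in nor-like1, and the gene of a ketoacyl synthase II fell. Of the 59 members, 44 had enough counts to be tested while 15 did not and stayed at or below 1.32 FPKM in every library. Among the 44, 5 were higher (11.4%) and 1 was lower (2.27%) and are called so here, at an adjusted p below 0.05 (edgeR quasi-likelihood test, Benjamini-Hochberg over 16380 genes), where 10.5% of all genes tested were higher and 11.4% were lower. The share of higher members was thus near that of all genes. The median log2 fold change was 0.11 over the 44 members and -0.01 over all genes tested. In FPKM, the 3 nor-like1 values lay all above the WT values in 10 members and all below in 3. Together these were 29.5% of those tested, against 42.8% of all genes (19.0% above and 23.8% below). The authors' deposited table held 58 of the members. Of these, 6 were higher and 1 was lower there at an adjusted p below 0.05, against 9.10% and 8.87% of its genes. The 6 members called here passed there with the same sign.

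**Figure D1:**
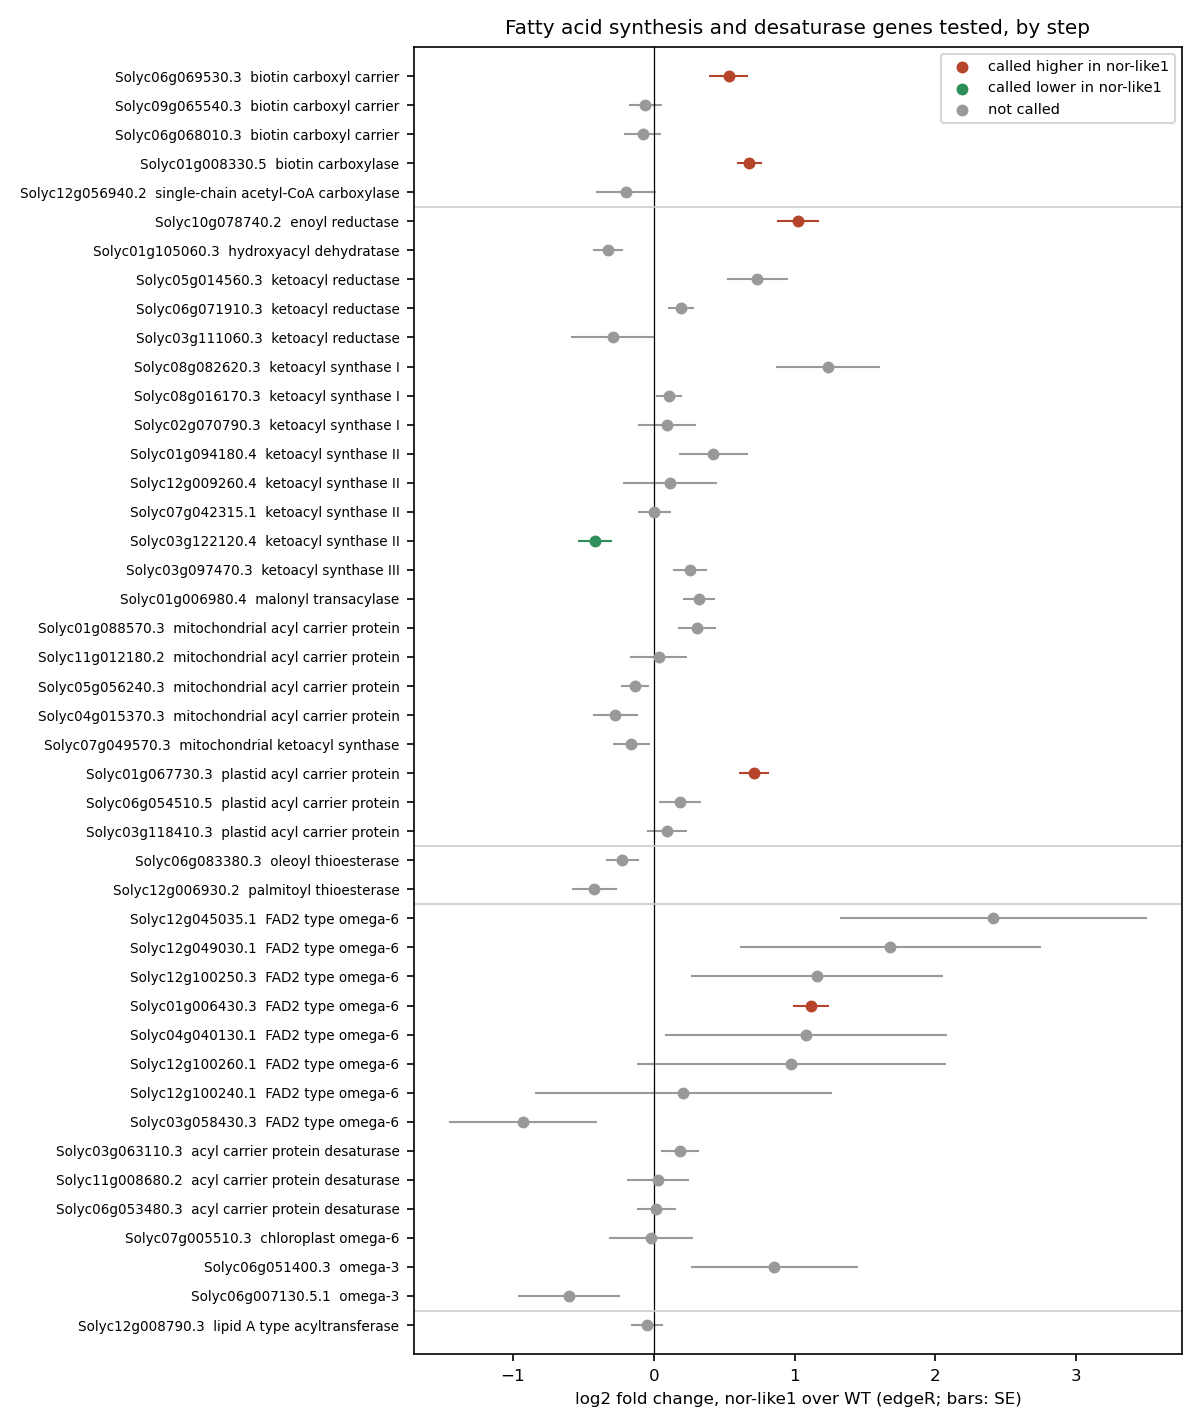
Log2 fold change, nor-like1 over WT, of the 44 tested members (horizontal axis, edgeR, bars are 1 SE), ordered by step from carboxylase at the top to desaturase, with 1 gene of another function below. The 5 genes called higher and the 1 called lower have short bars, while the FAD2-like genes reach 2.41 with bars of about 1 log2 unit.

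The carboxylase step held 7 members, of which 5 were tested. Of these few genes, 2 were higher (40.0%) and 0 were lower, against 10.5% and 11.4% of all genes tested. The plastid enzyme is assembled from biotin carboxylase, biotin carboxyl carrier protein and a carboxyltransferase of alpha and beta subunits. Biotin carboxylase (Solyc01g008330.5), which loads carbon dioxide onto biotin, had 37.56, 37.22 and 37.88 FPKM in nor-like1 against 22.93, 23.48 and 25.09 FPKM in WT. The genotypes were far apart relative to their spread, and the log2 fold change was 0.68 (SE 0.087, with adjusted p = 0.00469). It passed the test with any 1 of the 6 libraries left out, with an adjusted p of at most 0.0313.

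Of the 3 biotin carboxyl carrier genes, whose products hold the biotin, the least abundant one rose. Solyc06g069530.3 had 15.07, 16.24 and 15.15 FPKM in nor-like1 against 9.46, 10.29 and 12.83 FPKM in WT, without overlap, and a log2 fold change of 0.53 (SE 0.138, with adjusted p = 0.0347). This call depended on single libraries. It held without WT replicate 3 (adjusted p = 0.0137), but the adjusted p was 0.0519, 0.118 and 0.086 without nor-like1 replicates 1, 2 and 3, and 0.117 and 0.121 without WT replicates 1 and 2. The other carriers, Solyc09g065540.3 and Solyc06g068010.3, overlapped between genotypes at 30.37 to 37.7 and 19.69 to 25.72 FPKM in nor-like1, and 33.58 to 36.5 and 22.58 to 24.63 FPKM in WT. Their log2 fold changes were -0.06 (SE 0.118) and -0.08 (SE 0.131), neither called. Summed over the 3 carriers, the level was 71.3 ± 7.51 FPKM in nor-like1 and 70.2 ± 1.21 FPKM in WT (SD, n = 3 each). The share of Solyc06g069530.3 in that sum was 21.8 ± 1.42% in nor-like1 and 15.5 ± 2.73% in WT, and each nor-like1 library was above each WT library (exact two-sided permutation test, p = 0.1, the smallest that 3 against 3 allows; 0.15 after Benjamini-Hochberg adjustment over 6 such shares). The genes for these shares, here and below, were mostly called members or genes picked after their values were seen. Their shares follow in part from that choice and are no separate support for the calls. The permutation test cannot reach 0.05 with so few libraries.

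The beta subunit of the carboxyltransferase is encoded in the plastid genome in plants, and the 2 genes listed with this name (Solyc00g500065.1 and Solyc09g091410.2) stayed below 1 FPKM and were not tested. Genes described as alpha subunits spell coenzyme A in full and so fall outside the rule. The single-chain acetyl-CoA carboxylase (Solyc12g056940.2), the type that makes malonyl-CoA outside the plastid for chain elongation, had the highest mean level of the step. It had 49.15, 38.03 and 40.67 FPKM in nor-like1 against 61.04, 52.17 and 35.7 FPKM in WT, where WT replicate 3 was the lowest of all 6 libraries. Its log2 fold change was -0.20 (SE 0.216, with adjusted p = 0.538), and -0.40 without WT replicate 3 (adjusted p = 0.102).

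The synthase step, counting acyl carrier proteins and the enzymes that work on them, held 26 members. Of the 22 tested, 2 were higher (9.09%) and 1 was lower (4.55%), against 10.5% and 11.4% of all genes tested. The median log2 fold change was 0.11. The summed level of the step was 1256, 1225 and 1276 FPKM in nor-like1 against 1092, 1121 and 1136 FPKM in WT, without overlap. This is no rise of the step as a whole. The means of the sum were 1252 and 1116 FPKM, and those of 1 gene in it, Solyc01g067730.3, were 372 and 229 FPKM. The sum thus differed by no more than this gene did, and it also holds the mitochondrial acyl carrier proteins.

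Acyl carrier protein holds the growing chain through all its reactions. Of the 3 plastid acyl carrier protein genes, the most abundant one, Solyc01g067730.3, rose. It had 359.06, 386.4 and 369.72 FPKM in nor-like1 and 209.68, 219.64 and 256.45 FPKM in WT, the highest levels of any member. The log2 fold change was 0.71 (SE 0.107, with adjusted p = 0.00699), and the largest adjusted p with 1 library left out was 0.042. The other plastid genes, Solyc06g054510.5 and Solyc03g118410.3, overlapped between genotypes with log2 fold changes of 0.19 (SE 0.151) and 0.09 (SE 0.144). The share of Solyc01g067730.3 in the plastid acyl carrier protein sum was 62.9 ± 2.75% in nor-like1 and 53.6 ± 5.47% in WT, without overlap (exact two-sided permutation test, p = 0.1; BH-adjusted p = 0.15 over 6 shares). WT replicate 3, at 59.3%, came close to the lowest nor-like1 library, at 60.3%.

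The mitochondrial acyl carrier proteins, which serve mitochondrial fatty acid synthesis and respiratory complex assembly, formed a set of 4 members and 0 were called by edgeR (0 also at an unadjusted p below 0.05). The most abundant, Solyc05g056240.3, had 186.33, 180.03 and 164.28 FPKM in nor-like1 and 186.12, 190.23 and 210.29 FPKM in WT. These ranges overlapped, with a log2 fold change of -0.13 (SE 0.098, with adjusted p = 0.362). The sum of the 4 was 337 ± 26.2 FPKM in nor-like1 and 371 ± 23.7 FPKM in WT (SD, n = 3 each), whereas the sum of the 3 plastid genes was 575, 587 and 613 FPKM in nor-like1 against 434, 412 and 433 FPKM in WT.

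Among the enzymes of the cycle, the last reduction stood out. The enoyl reductase (Solyc10g078740.2), the only member that names this activity, had 30.65, 38.81 and 40.41 FPKM in nor-like1 against 15.5, 19.81 and 19.65 FPKM in WT. Every nor-like1 library exceeded every WT library, and replicate 1 was the lowest of each genotype. The log2 fold change was 1.02 (SE 0.148, with adjusted p = 0.00642), about 2.03-fold, and it passed the test with any 1 library left out.

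Of the condensing enzymes, 1 gene fell. Ketoacyl synthase II extends palmitoyl chains to stearoyl chains. Its most abundant gene, Solyc03g122120.4, had 53.29, 44.63 and 42.79 FPKM in nor-like1 against 65.57, 66.29 and 59.13 FPKM in WT, without overlap, and fell by 0.42 on the log2 scale (SE 0.122, with adjusted p = 0.0487). That value is close to the threshold. The adjusted p was 0.145 and 0.144 without nor-like1 replicates 2 and 3, 0.147 and 0.158 without WT replicates 1 and 2, and 0.0301 and 0.0309 without nor-like1 replicate 1 and WT replicate 3. It was 0.0671 with upper-quartile factors and 0.0564 with no filter on low counts. The other ketoacyl synthase II genes tested (3 members, none above 20.7 FPKM) had log2 fold changes between 0.00 and 0.42 and were not called. The share of Solyc03g122120.4 among ketoacyl synthase II genes was 67.2 ± 3.99% in nor-like1 and 74.1 ± 0.556% in WT, without overlap (exact two-sided permutation test, p = 0.1; BH-adjusted p = 0.15 over 6 shares).

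**Figure D2:**
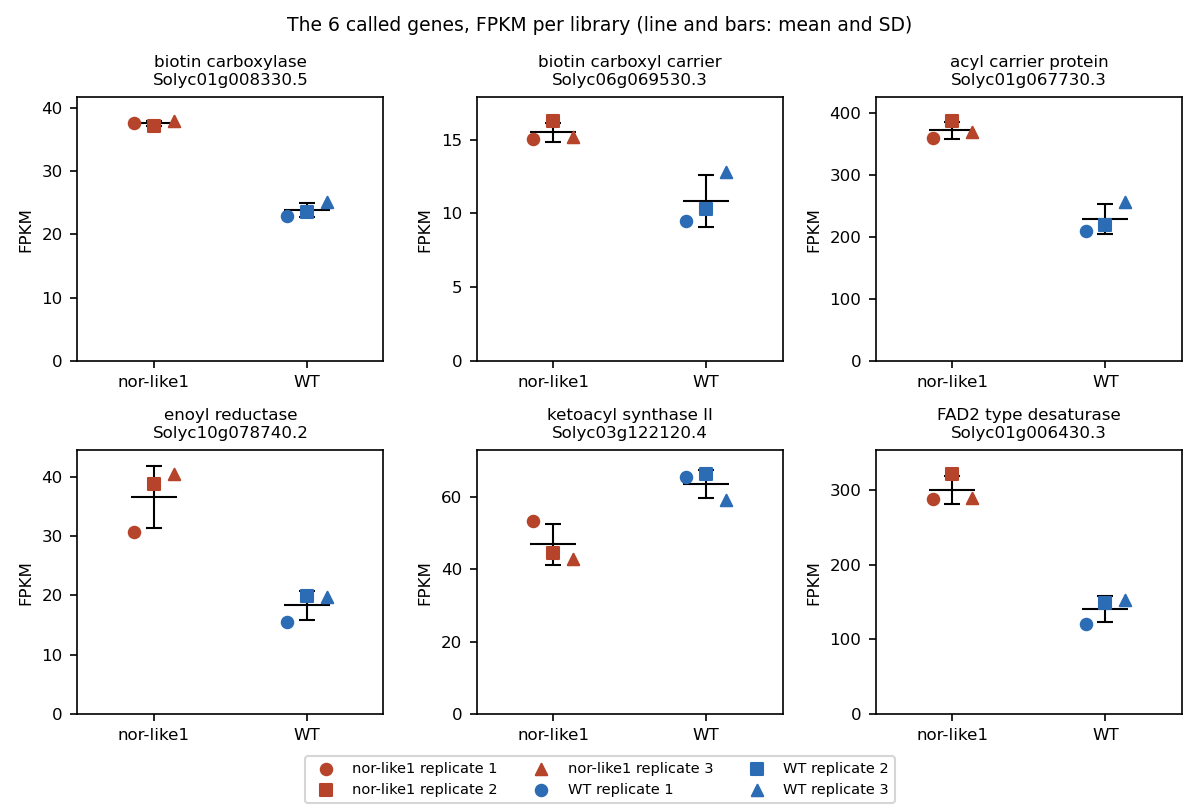
FPKM per library of the 6 called members, with nor-like1 to the left of WT in each panel, where points are libraries and lines with bars are means with SD (n = 3 each). In 5 panels all nor-like1 points lie above all WT points, and in the ketoacyl synthase II panel all lie below.

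Several enzymes of the cycle missed the threshold by little. They are named here after their values were seen. A ketoacyl reductase of low level (Solyc05g014560.3), which carries out the first reduction, had 6.32, 7.85 and 9.43 FPKM in nor-like1 against 3.71, 5.16 and 5.49 FPKM in WT, with a log2 fold change of 0.74 (SE 0.219, with adjusted p = 0.0514). Its groups did not overlap, and the adjusted p was 0.0341 without nor-like1 replicate 1 and 0.0475 without WT replicate 3. It was 0.137 and 0.154 without nor-like1 replicates 2 and 3, and 0.152 and 0.119 without WT replicates 1 and 2. With all libraries it was 0.0488 by DESeq2, 0.044 with upper-quartile factors and 0.0547 to 0.0833 in the limma fits. The more abundant reductase gene, Solyc06g071910.3, had 40.65 to 41.27 FPKM in nor-like1 and 34.94 to 38.39 FPKM in WT, also without overlap, and a log2 fold change of 0.19 (SE 0.092, with adjusted p = 0.176).

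A ketoacyl synthase I gene (Solyc08g082620.3), of the type that extends short chains, had 3.14, 2.03 and 3.09 FPKM in nor-like1 against 0.64, 1.64 and 1.32 FPKM in WT, without overlap. The log2 fold change was 1.24 (SE 0.371, with adjusted p = 0.0522), and DESeq2 on the same counts gave an adjusted p of 0.0272. With 1 library left out the edgeR adjusted p was 0.0636 to 0.143, and it was 0.052 to 0.0651 in the limma fits. Its abundant relative Solyc08g016170.3 had 27.29 to 27.71 FPKM in nor-like1 and 24.89 to 27.04 FPKM in WT, with a log2 fold change of 0.11 (SE 0.093, with adjusted p = 0.44). These groups did not overlap, but the difference was of the size of its error. The hydroxyacyl dehydratase (Solyc01g105060.3), which removes water between the reductions, had 53.47, 59.45 and 62.54 FPKM in nor-like1 against 72.38, 81.21 and 73.19 FPKM in WT. All nor-like1 libraries were below all WT libraries, with a log2 fold change of -0.33 (SE 0.105, with adjusted p = 0.0643). With 1 library left out the edgeR adjusted p was 0.0528 to 0.211, while the limma fits gave 0.0481 to 0.0487. The malonyl transacylase (Solyc01g006980.4), which hands the malonyl group to acyl carrier protein, gave 0.32 on the log2 fold change scale (SE 0.115, with adjusted p = 0.0838). Without WT replicate 3, its highest WT library at 33.97 FPKM, the value was 0.42 (adjusted p = 0.0271), and the other 5 fits without 1 library did not pass. Its best protein hit names a mitochondrial form.

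Thioesterases end synthesis by releasing the chain from acyl carrier protein. Of the 3 members, 2 were tested and 0 were called by edgeR (1 at an unadjusted p below 0.05; 0 by DESeq2). The palmitoyl type (FATB, Solyc12g006930.2), which releases mainly saturated chains, had 82.07, 67.53 and 88.95 FPKM in nor-like1 against 114.34, 119.01 and 90.52 FPKM in WT. The groups did not overlap, though nor-like1 replicate 3 and WT replicate 3 nearly met. The log2 fold change was -0.42 (SE 0.158, with adjusted p = 0.0965), and it was -0.55 without WT replicate 3 (adjusted p = 0.0282), the only fit without 1 library that passed. The oleoyl type (FATA, Solyc06g083380.3), which releases mainly monounsaturated chains, had 15.53, 15.86 and 18.66 FPKM in nor-like1 against 19.32, 21.3 and 18.61 FPKM in WT, with a log2 fold change of -0.22 (SE 0.117, with adjusted p = 0.208). FATB made up 82.4 ± 1.67% of the thioesterase sum in nor-like1 and 84.4 ± 1.39% in WT (exact two-sided permutation test, p = 0.2; BH-adjusted p = 0.24 over 6 shares).

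**Figure D3:**
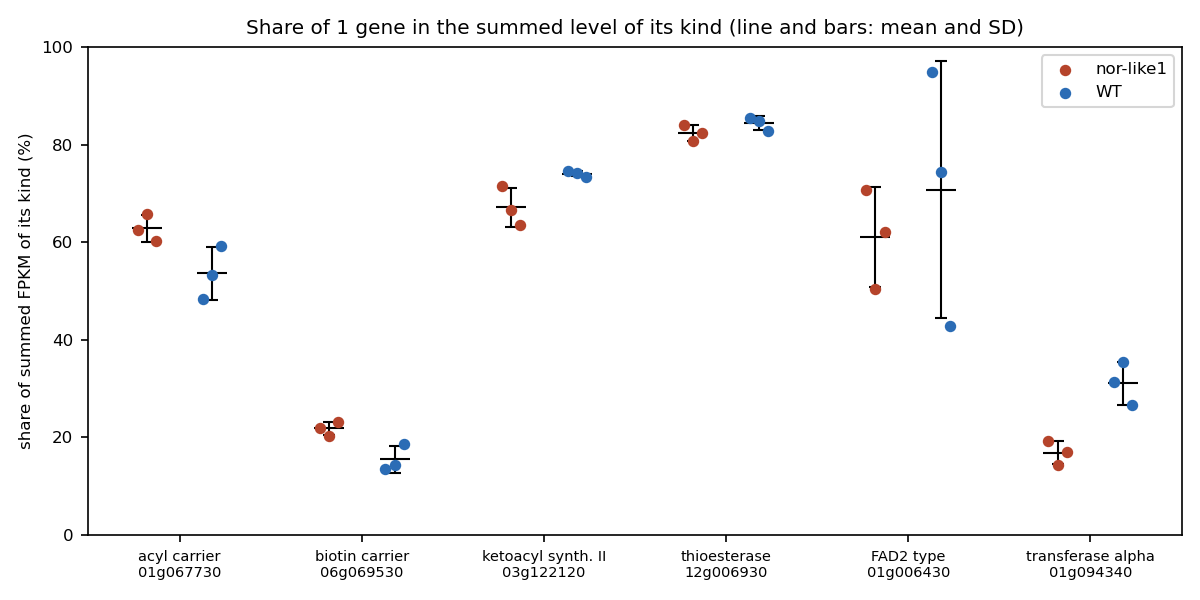
Share in percent of 1 gene in the summed FPKM of its kind, with nor-like1 to the left of WT in each pair, where points are libraries and lines with bars are means with SD (n = 3 each); the carboxyltransferase alpha genes at the right lie outside the membership rule. The acyl carrier protein and biotin carrier shares are higher and the ketoacyl synthase II share is lower in each nor-like1 library, while the FAD2 type share ranges widely in WT.

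The desaturase step held 22 members, of which 14 were tested. Of these, 1 was higher (7.14%) and 0 were lower, against 10.5% and 11.4% of all genes tested. The median log2 fold change of the step was 0.53. Its summed level was 644, 934 and 759 FPKM in nor-like1 against 317, 409 and 649 FPKM in WT. WT replicate 3 reached the lowest nor-like1 library, so the sums overlapped. The soluble acyl carrier protein desaturases, which place the first double bond while the chain is still on its carrier, were not called: Solyc03g063110.3, Solyc06g053480.3 and Solyc11g008680.2 had log2 fold changes of 0.18, 0.02 and 0.03, with SE of 0.134, 0.14 and 0.22. Their summed level with 2 genes near 0 was 125 ± 18.6 FPKM in nor-like1 and 118 ± 6.77 FPKM in WT (SD, n = 3 each).

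An omega-6 desaturase of the FAD2 type (Solyc01g006430.3) rose about 2.17-fold. FAD2 enzymes sit in the endoplasmic reticulum and turn oleate into linoleate, and the best protein hit of this gene names an endoplasmic reticulum isozyme, as do those of 4 of the 6 FAD2-like genes described below. The gene had 287.83, 321.15 and 289.76 FPKM in nor-like1 against 120.49, 148.47 and 152.72 FPKM in WT, with no overlap and little spread within a genotype. The log2 fold change was 1.12 (SE 0.127, with adjusted p = 0.00344), the smallest adjusted p of any member. With 1 library left out it ranged from 1.02 to 1.16, and the adjusted p was at most 0.0233. The chloroplast omega-6 desaturase (Solyc07g005510.3, named after its values were seen), which acts on plastid lipids, had 37.1, 62.24 and 67.2 FPKM in nor-like1 against 41.04, 53 and 77.71 FPKM in WT, and a log2 fold change of -0.02 (SE 0.298, with adjusted p = 0.973). In both genotypes its level was lowest in replicate 1.

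Omega-3 desaturases turn linoleate into linolenate, the precursor of jasmonates. Of the 3 members, the one expressed above 2 FPKM was Solyc06g051400.3, whose best hit is Fad7 in the RefSeq table. Fad7 had 54.29, 126.38 and 99.36 FPKM in nor-like1 against 23.24, 33.83 and 101.55 FPKM in WT. WT replicates 1 and 2 were below all nor-like1 libraries, and WT replicate 3 was above 2 of them. The log2 fold change was 0.86 (SE 0.593, with adjusted p = 0.337), and it was 1.72 without WT replicate 3 (adjusted p = 0.0306), the only fit without 1 library that passed. It was 0.57 without nor-like1 replicate 2 and 0.51 without WT replicate 1.

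A group of 6 further FAD2-like genes varied more between WT libraries than any other tested member. They were singled out after their values were seen, and the annotation does not set them apart from Solyc01g006430.3. Plants hold divergent FAD2-like enzymes beside the oleate desaturase, some of which place triple bonds or other groups in fatty acids, and the annotation here does not say which reaction any of these genes, Solyc01g006430.3 included, carries out. Solyc12g100260.1, the most abundant, had 66.76, 128.73 and 75.66 FPKM in nor-like1 against 2.23, 26.9 and 112.73 FPKM in WT. Solyc12g045035.1 had 24.67, 104.06 and 61.65 FPKM in nor-like1 against 0.8, 7.56 and 28.36 FPKM in WT. Solyc12g049030.1, whose best hit RefSeq calls SLFAD2-7, had 6.4, 20.9 and 7.18 FPKM in nor-like1 against 0.21, 1.67 and 9.08 FPKM in WT. WT replicate 3 thus reached into the nor-like1 range in each of these genes, while WT replicate 1 was far below it.

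The other FAD2-like genes showed the same order. Solyc04g040130.1 had 6.58, 26.76 and 13.52 FPKM in nor-like1 and 0.66, 4.89 and 17.17 FPKM in WT. Solyc12g100240.1 had 5.72, 18.21 and 10.84 FPKM in nor-like1 and 0.79, 4.97 and 25.13 FPKM in WT. Solyc12g100250.3 had 7.45, 16.92 and 7.18 FPKM in nor-like1 and 0.43, 3.98 and 10.11 FPKM in WT. In 6 of the 6 genes WT replicate 1 was the lowest and WT replicate 3 the highest WT library, and nor-like1 replicate 2 was the highest nor-like1 library. Over all 16380 genes tested, WT replicate 3 was the highest WT library in 7179, WT replicate 1 the lowest in 5922 and nor-like1 replicate 2 the highest of its genotype in 4521.

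The ratio of the highest to the lowest library in these 6 genes was 1.93 to 4.22 within nor-like1 and 23.5 to 50.6 within WT. None passed the test: log2 fold changes lay between 0.21 and 2.41 with standard errors near 1, and 0 were called by edgeR (0 at an unadjusted p below 0.05; 0 by DESeq2). Without WT replicate 3, Solyc12g045035.1 reached 4.03 on the log2 scale (adjusted p = 0.0424) and Solyc12g049030.1 3.77 (adjusted p = 0.0387), against 2.41 (adjusted p = 0.162) and 1.68 (adjusted p = 0.299) with it. The other 4 also moved by more than 1 log2 unit but were not called then. Solyc12g100260.1 was at 2.69 without WT replicate 3 (adjusted p = 0.0966) and 0.98 with it. Solyc04g040130.1 was at 2.61 (adjusted p = 0.0962) and 1.08 with it, Solyc12g100250.3 at 2.38 (adjusted p = 0.101) and 1.16, and Solyc12g100240.1 at 2.10 (adjusted p = 0.121) and 0.21. Leaving out other libraries lowered the values. The lowest of the 6 fits was 0.43 for Solyc04g040130.1, 1.85 for Solyc12g045035.1 and 0.92 for Solyc12g049030.1. It was -0.34 for Solyc12g100240.1, 0.60 for Solyc12g100250.3 and 0.42 for Solyc12g100260.1. The size of these folds thus rested on single libraries, WT replicate 3 among them. Solyc12g045035.1, Solyc12g100240.1 and Solyc12g100260.1 had expected counts that were not whole numbers, so reads were divided with near-identical genes. With Solyc12g100240.1 and Solyc12g100260.1 summed, the log2 fold change was 0.87 (SE 1.09, with adjusted p = 0.596).

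**Figure D4:**
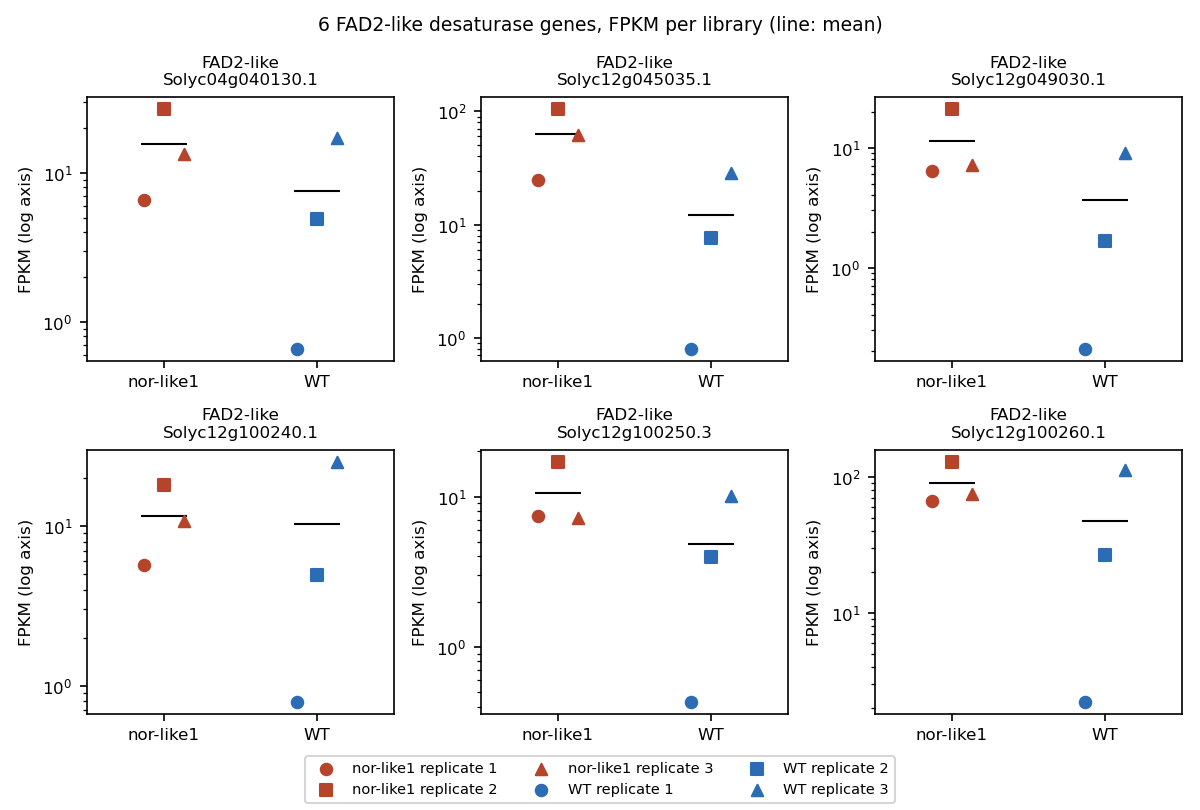
FPKM per library on a log axis of 6 FAD2-like desaturase genes, with nor-like1 to the left of WT, where points are libraries and lines are means. In each panel WT replicate 1 lies lowest and WT replicate 3 lies within or above the nor-like1 points.

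The summed level of the 6 genes was 118, 316 and 176 FPKM in nor-like1 against 5.12, 50.0 and 203 FPKM in WT. Set beside them, Solyc01g006430.3 made up 70.7, 50.3 and 62.1% of the FAD2 type sum in nor-like1 and 95.0, 74.5 and 42.8% in WT (exact two-sided permutation test, p = 0.6; BH-adjusted p = 0.6 over 6 shares). Solyc01g006430.3 itself varied 1.12-fold within nor-like1 and 1.27-fold within WT. The vascular marker sum was also highest among WT libraries in replicate 3, at 169, 307 and 309 FPKM in nor-like1 against 148, 161 and 221 FPKM in WT. Of its 25 genes, 12 were tested, with 3 higher (25.0%) and 1 lower (8.33%), against 10.5% and 11.4% of all genes. The epidermis sum was highest there too, at 240, 249 and 303 FPKM in WT. The chlorophyll-binding sum was lowest there, at 2100, 2171 and 1948 FPKM, and the seed sum was neither, at 258, 222 and 246 FPKM. The part of these marker sums in the desaturase values was not tested.

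Leaving out WT replicate 3 changed the count of called members most. Then, of 44 members tested, 10 were higher and 2 were lower, where 14.1% of all 16631 genes tested were higher and 14.4% were lower. The genes added were the malonyl transacylase, the ketoacyl reductase Solyc05g014560.3, Fad7, Solyc12g045035.1 and Solyc12g049030.1 among the higher, and FATB among the lower. The 6 genes called with all libraries were also called without this one.

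**Figure D5:**
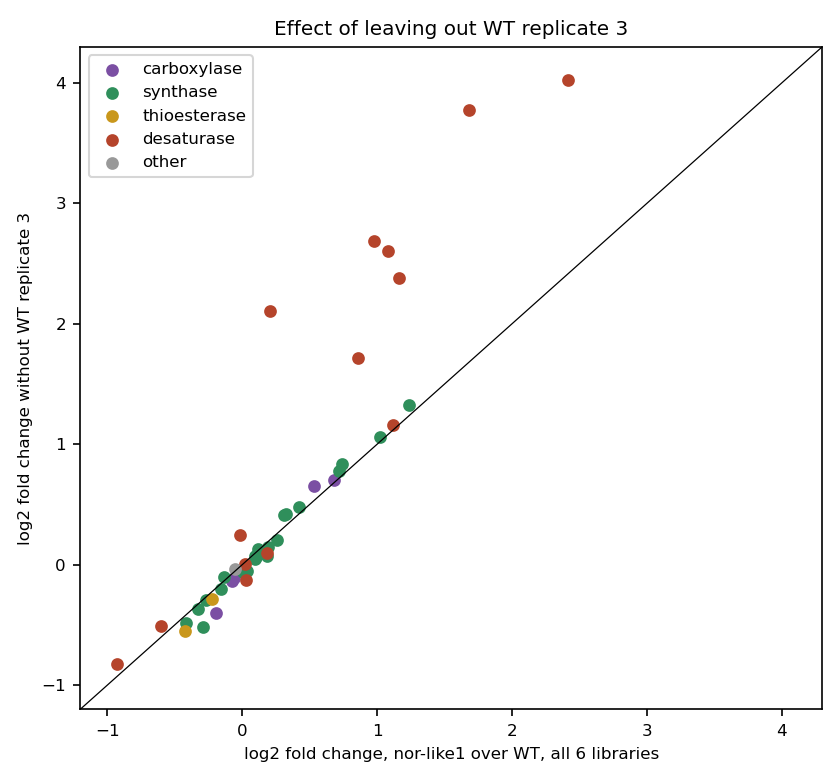
Log2 fold change, nor-like1 over WT, of each tested member with all 6 libraries (horizontal axis) and without WT replicate 3 (vertical axis), coloured by step, with the line of equal values. The 6 FAD2-like genes and Fad7 lie above the line, up to 4.03, and most other points lie along it.

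Genes that feed plastid fatty acid synthesis and take up its products were read from a separate list of 64 genes, matched on descriptions and best hits. Of 58 tested, 11 were higher (19.0%) and 4 were lower (6.90%), against 10.5% and 11.4% of all genes, and the median log2 fold change was 0.17. Of 18 genes matched as pyruvate dehydrogenase complex, which supplies acetyl-CoA, 4 were higher and 0 were lower. The 18 include many mitochondrial forms, a pyruvate dehydrogenase kinase and a branched-chain acyltransferase. Of those higher, Solyc04g008590.3 and Solyc05g009530.3 have chloroplast best hits, with log2 fold changes of 0.56 and 0.75 (edgeR adjusted p = 0.0297 and 0.0295). Each passed in 2 of the 6 fits without 1 library. Solyc05g053100.3, also with a chloroplast best hit, had -0.72 and was not called (adjusted p = 0.0873). The remaining genes with such hits were not called either. Solyc01g100360.4 and Solyc08g016750.3 had log2 fold changes of 0.35 and 0.30. Solyc12g009410.2, Solyc12g009400.2 and Solyc11g017250.2 had 0.08, 0.02 and -0.0017. Of 4 ATP-citrate synthase genes, which make acetyl-CoA in the cytosol, 2 were higher and 0 were lower. Of 5 fatty acid export genes, 2 were higher and 0 were lower, and of 13 acyltransferases that attach chains to glycerol phosphate, 0 were higher and 2 were lower. Of 11 acyl-CoA synthetases, which activate the released chains, 3 were higher and 2 were lower.

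The genes of this list given with values were chosen after these were seen. A beta subunit gene of pyruvate dehydrogenase whose best hit is a mitochondrial form (Solyc05g024160.3) had 24.11, 16.77 and 23.87 FPKM in nor-like1 against 6.66, 7.11 and 4.72 FPKM in WT. The groups were well apart, with a log2 fold change of 1.83 (SE 0.216, with adjusted p = 0.00371). FATTY ACID EXPORT 1 (Solyc10g079260.2), which in Arabidopsis moves fatty acids across the plastid envelope, had 47.72, 53.12 and 47.71 FPKM in nor-like1 against 32.81, 31.76 and 36.99 FPKM in WT. It rose by 0.57 on the log2 scale (SE 0.103, with adjusted p = 0.0118, and 0.0584 without WT replicate 2). A long-chain acyl-CoA synthetase with a peroxisomal best hit (Solyc09g075790.3) had 8, 8.22 and 8.6 FPKM in nor-like1 against 3.56, 3.53 and 3.76 FPKM in WT, and a log2 fold change of 1.04 (SE 0.112, with adjusted p = 0.00288). The acyl-activating enzyme Solyc09g092450.3, with a chloroplast best hit, rose by 0.77 (SE 0.112, with adjusted p = 0.00636) on the same scale.

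The 4 genes of the list called lower included 2 with products placed in the chloroplast. The acyl-CoA synthetase Solyc11g018580.2, with a chloroplast best hit, had 47.46, 38.56 and 43.88 FPKM in nor-like1 against 66.51, 70.29 and 56.04 FPKM in WT. The groups did not overlap, and it fell by 0.55 on the log2 scale (SE 0.134, with adjusted p = 0.0292). The adjusted p was 0.0994 and 0.0871 without nor-like1 replicates 2 and 3, and 0.096 and 0.108 without WT replicates 1 and 2. The chloroplast glycerol phosphate acyltransferase Solyc08g076470.5, which starts glycerolipid synthesis in the plastid, had 18.92, 23.58 and 24.32 FPKM in nor-like1 against 30.48, 31.6 and 29.15 FPKM in WT. It fell by 0.43 (SE 0.125, with adjusted p = 0.0485), and of the fits without 1 library only the one without WT replicate 3 passed (0.0411), the others giving 0.0785 to 0.156.

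The other genes called lower were GPAT6 (Solyc09g014350.3), an acyltransferase of cutin synthesis, and a synthetase of very low level. GPAT6 had 6.06, 13.38 and 10.79 FPKM in nor-like1 against 22.89, 21.42 and 31.22 FPKM in WT, and fell by 1.30 on the log2 scale (SE 0.298, with adjusted p = 0.0279). Its adjusted p was 0.0849 without nor-like1 replicate 3 and 0.0671 and 0.0732 without WT replicates 1 and 2. The synthetase Solyc12g009040.3 had 0.13, 0.09 and 0.06 FPKM in nor-like1 against 0.78, 0.71 and 0.52 FPKM in WT, a sum of 6 counts in nor-like1 and 67 in WT, and was called lower (adjusted p = 0.00821).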

How the data were processed

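RNA-seq of tomato exocarp was used as deposited, in 1 table per library with 3 nor-like1 and 3 WT libraries. The authors deposited expected counts and FPKM per gene, per the file headers. Per the submitters' processing notes the tools were RSEM, Bowtie2, HISAT2 and StringTie (no versions or roles). Not given in the sources used here were the genome build, the annotation and whether counting used strand. The authors' deposited table of log2 fold changes and p-values (DESeq2) was only set beside the values computed here.

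The quasi-likelihood F test of edgeR 4.0.16 (R 4.3.3) was run on the expected counts after rounding, with genotype as sole term, TMM factors, filterByExpr and a robust fit, and with Benjamini-Hochberg adjustment over all 16380 genes tested. Genes were called at an adjusted p below 0.05. SE is the absolute log2 fold change over the square root of F. DESeq2 1.42.0, limma 3.58.1 on log2(FPKM + 1) or log2(FPKM + 0.1), upper-quartile factors, other filters on low counts, a replicate block and 6 fits without 1 library were tried as alternatives. A sum over near-identical genes was added after seeing the data. A floor of 3 counts equals 0.171 to 0.353 CPM over the libraries, for counting error only. Libraries of 1 genotype differed beyond sampling noise (chi-square per gene 10.8 to 49.4).

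The members and lists were chosen with earlier results of these data known. Named with values are the called members, the 2 most abundant of each step and the subunits of plastid acetyl-CoA carboxylase; other members, and the genes of the pathway list, were chosen after their values were seen. Of the 59 members, 53 matched by description and 6 by best hit alone, and 39 best hits were found in the RefSeq table of assembly SLM_r2.1, which was used for names only. The step of 1 member was set by hand (Solyc12g008790.3, a lipid A type acyltransferase, put in no step). The pathway list also takes genes of other function, such as branched-chain acyltransferases.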

Additional observations from a re-analysis of the deposited data

How the results depend on the processing

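Over the whole table, 3585 genes were called, between 3266 and 4032 under other normalizations, filters and tools, and between 1139 and 4742 with 1 library left out. The members called higher were 5, but 7 with DESeq2 and with upper-quartile factors, 6 with no low-count filter, and between 4 and 10 with 1 library left out. The members called lower were 1, but 0 with upper-quartile factors, with no low-count filter and with the replicate block, 2 in each limma fit, and between 0 and 2 with 1 library left out. The block gave 2626 genes and 5 members called higher, but not the same 5: the biotin carboxyl carrier Solyc06g069530.3 was lost (adjusted p = 0.0638) and the ketoacyl reductase Solyc05g014560.3 gained (0.0453), while the ketoacyl synthase II Solyc03g122120.4 gave 0.0716. No label pairs the libraries by replicate number. Deviations of same-numbered libraries correlated at 0.222, -0.230 and 0.018, and those of differently numbered libraries at -0.260 to 0.324. With 3 libraries per genotype these values cannot tell whether libraries were paired. Fold changes near 0 turned sign. Solyc06g053480.3 was -0.0179, -0.0184 and -0.0179 and Solyc07g042315.1 -0.0195, -0.0206 and -0.0195 in the limma fits, and Solyc07g005510.3 was 0.0187 with upper-quartile factors. With 1 library left out, log2 fold changes that crossed 0 ranged from -0.13 to 0.24 (Solyc02g070790.3), -0.52 to 0.0107 (Solyc03g111060.3), -0.0572 to 0.19 (Solyc03g118410.3), -0.12 to 0.14 (Solyc06g053480.3), -0.20 to 0.00766 (Solyc06g068010.3), -0.20 to 0.25 (Solyc07g005510.3), -0.0739 to 0.0794 (Solyc07g042315.1), -0.16 to 0.00814 (Solyc09g065540.3), -0.18 to 0.17 (Solyc11g008680.2), -0.16 to 0.20 (Solyc11g012180.2), -0.21 to 0.39 (Solyc12g009260.4) and -0.34 to 2.10 (Solyc12g100240.1). None of these 12 genes was called in those fits, and the cause was not tested.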

Other observations

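Some genes of the same pathway fall outside the membership rule because their descriptions use other words. They were chosen after their values were seen. A carboxyltransferase alpha subunit gene (Solyc01g094340.3), of the same plastid carboxylase as the biotin carboxylase above, had 13.77, 10.39 and 13.49 FPKM in nor-like1 against 24.71, 27.8 and 21.44 FPKM in WT. It fell by 0.96 on the log2 scale (SE 0.155; edgeR adjusted p = 0.00834) and was called with any 1 library left out. The more abundant alpha gene (Solyc09g013080.3) had 56.67, 59.88 and 64.84 FPKM in nor-like1 against 52.49, 49.31 and 57.36 FPKM in WT, with a log2 fold change of 0.21 (SE 0.107, with adjusted p = 0.188). The share of Solyc01g094340.3 in the alpha sum was 16.9 ± 2.4% in nor-like1 and 31.1 ± 4.37% in WT, without overlap (exact two-sided permutation test, n = 3 each, p = 0.1; BH-adjusted p = 0.15 over 6 shares).

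A gene described only as a lipid desaturase (Solyc12g044950.3, best hit cevi19 or SlFAD2-6 in the RefSeq table) had 35.03, 104.09 and 141.9 FPKM in nor-like1 against 0.64, 1.4 and 1.7 FPKM in WT. Its log2 fold change was 6.54 (SE 0.704, with adjusted p = 0.00417), larger than that of any member, and it was called with any 1 library left out. WT replicate 3 stayed far below the nor-like1 range here, unlike in the 6 FAD2-like genes of the report. Solyc12g100270.2, with an ECERIFERUM 1 best hit, is described as a fatty acid hydroxylase and not as a gene of the steps above. It had 5.28, 15.91 and 10.12 FPKM in nor-like1 against 0.03, 1.27 and 2.12 FPKM in WT. Its log2 fold change was 3.24 (SE 0.926, with adjusted p = 0.0526). Leaving out WT replicate 1 gave an adjusted p of 0.042, and leaving out WT replicate 3 gave 0.0357.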
